A study of Mus musculus with 6 samples.

Results

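The microRNA genes whose RNA gave a signal on whole-transcript arrays of mouse whole blood were compared between mice housed in an enriched environment (EE) and mice housed in a standard environment (SE). A gene was taken as detectable, and is called a member here, if a probe set with a single gene symbol named it as a microRNA gene (a symbol starting with Mirlet7 or with Mir and a digit, host gene names ending in hg left out) and if its mean log2 value over the 6 arrays was at least 5. For a gene with several probe sets, the one with the highest mean was kept. Of 478 microRNA genes with such a probe set, 136 (28.5%) met the rule. The members were thus chosen by their mean level over both groups together, and their levels are given as a description. The difference between EE and SE mice was not used in the choice.

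The study housed outbred male CD1 mice for 2 weeks in an enriched or a standard enclosure and took blood by cardiac puncture at 9 weeks of age, with no inflammatory insult. The EE group and the SE group had 3 mice each, with 1 array per mouse, and the labels give no transgene or agent for either group. The comparison addressed how housing alone alters the RNA of circulating blood. Which of the mice lived in the same enclosure is not given in the sources used here. Blood is a mixture of cells, and fewer cells of a type cannot be told apart from less RNA per cell.

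MicroRNAs are short RNAs that repress messenger RNAs. They are made from longer primary transcripts, in which a hairpin is cut out in the nucleus by Drosha and Dgcr8, carried to the cytoplasm by Xpo5 and cut by Dicer1. A strand of the product is then held by an Argonaute protein, and its seed, bases 2 to 8 from the 5′ end, pairs with target messages. In blood, miR-451a is abundant in red cells, miR-142 in all white cells, miR-150 in mature lymphocytes, and miR-23a and miR-27a are made from a single transcript of myeloid cells. The arrays were hybridised with complementary DNA made from total RNA that had been purified on columns of a kind that as a rule retains little of the shortest RNA. A value of a microRNA gene therefore reads RNA of the hairpin locus, and the amount of the mature microRNA was not measured.

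RefSeq (GRCm38.p6) gave a sequence for 119 of the 136 members, 110 of them with a hairpin, and 17 were not matched. The mature sequences of 4 of the 5 members with an unadjusted p under 0.05 between EE and SE mice (Mir142, Mir375, Mir505 and Mir687) are shown first. The share of members called at this threshold lay close to the background, as given below. For Mir375 the sequences used here held miR-375-5p alone, so the seed of miR-375-3p is not shown. Capitals mark the seed.
miR-142a-3p: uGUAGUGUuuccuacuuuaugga
miR-142a-5p: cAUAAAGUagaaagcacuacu
miR-375-5p: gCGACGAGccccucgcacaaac
miR-505-3p: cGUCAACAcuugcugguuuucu
miR-505-5p: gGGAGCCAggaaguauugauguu
miR-687: cUAUCCUGgaaugcagcaauga

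The hairpins of Mir142 (chr11:87756864-87756927, plus strand) and Mir687 (chr14:73206763-73206851, minus strand) show what a probe set of such a short gene can read. Capitals mark the mature microRNAs.
Mir142 hairpin: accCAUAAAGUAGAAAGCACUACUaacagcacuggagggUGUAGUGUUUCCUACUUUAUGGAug
Mir687 hairpin: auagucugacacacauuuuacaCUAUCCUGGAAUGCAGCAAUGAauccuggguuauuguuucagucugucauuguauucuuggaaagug

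The members described below for their roles in blood are shown next, again with the seed in capitals. miR-15a-5p and miR-16-5p share the seed AGCAGCA, and miR-16-5p is made from both Mir16-1 and Mir16-2. miR-181c-5p and miR-181d-5p share the seed ACAUUCA, and miR-103-3p and miR-107-3p share GCAGCAU. The sequences used here held miR-150-3p alone for Mir150 and miR-185-3p alone for Mir185. The seeds of miR-150-5p and miR-185-5p, from the other side of each hairpin, are therefore not shown.
miR-451a: aAACCGUUaccauuacugaguu
miR-210-3p: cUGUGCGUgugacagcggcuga
miR-150-3p: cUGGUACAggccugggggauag
miR-15a-5p: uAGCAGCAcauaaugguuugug
miR-16-5p: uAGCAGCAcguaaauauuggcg
miR-181c-5p: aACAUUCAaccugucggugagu
miR-181d-5p: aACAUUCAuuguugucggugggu
miR-342-3p: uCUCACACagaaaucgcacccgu
miR-23a-3p: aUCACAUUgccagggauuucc
miR-27a-3p: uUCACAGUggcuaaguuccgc
let-7a-5p: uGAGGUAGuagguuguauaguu
miR-185-3p: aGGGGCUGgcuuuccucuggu
miR-103-3p: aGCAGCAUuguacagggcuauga
miR-107-3p: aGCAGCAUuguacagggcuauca
Over the matched members, 10 seeds were shared by at least a pair of genes, and 19 members carried a shared seed.

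Levels were checked against sets of genes that blood should and should not express. A mean of at least 5 was found for 28.5% of the microRNA genes, for 6.31% of 1394 olfactory and vomeronasal receptor genes, and for 59.0% of 22180 genes of all kinds. Microarray values of different probe sets are not amounts that can be set against each other, so these shares describe the threshold alone. Of 60 microRNA genes on lists of blood cell microRNAs, 18 were members. Of 39 on a list of microRNAs typical of other tissues, 6 were members (Mir124a-2, Mir194-1, Mir194-2, Mir200a, Mir375 and Mir9-3). Genes on the blood lists thus reached 5 about as often as microRNA genes of all kinds (28.5%), and those on the list of other tissues less often. A mean of at least 5 therefore did not mark a member as a blood cell microRNA. Mir451a was a member with a mean of 6.39, while Mir144, which is made from the same primary transcript, had a mean of 2.32. The microRNA genes that share a probe set with another gene could not be read separately: 139 microRNA genes, Mir223, Mir155 and Mir21a among them, were on the array only in this way and are not described.

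Of the members, 58 had a mean between 5 and 6, 18 a mean above 8, and 48 reached 100 on the linear scale, the minimum of the study's methods. Mir692-1 had 12.74, 12.78 and 12.91 in EE mice, against 12.64, 12.81 and 12.92 in SE mice. Mir5099 had 12.15, 12.33 and 11.70 in EE mice, against 11.68, 12.15 and 12.11 in SE mice. Mir449b had 11.70, 11.61 and 11.42 in EE mice, against 11.43, 11.40 and 11.57 in SE mice. In these, the members with the highest means, the groups overlapped. At the threshold, the members just inside were Mir694 (mean 5.10), Mir152 (5.07) and Mir103-2 (5.05), and the genes just outside were Mirlet7i (4.995), Mir670 (4.99) and Mir18 (4.98).

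The hairpins of members were richer in G and C than those of microRNA genes under the threshold, with a median of 55.3% in 110 members and 46.2% in 290 other genes. When 400 microRNA genes with a hairpin sequence were ranked by G and C and divided into 4 parts of 100, a mean of at least 5 was found for 12% of the genes in the part with the least, 13% and 27% in the middle parts and 58% in the part with the most. Over the 400 genes the level and the G and C content had r = 0.50 and rho = 0.55, as a description across genes that share the same arrays. The part of probe base composition in the levels was not tested.

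**Figure D1:**
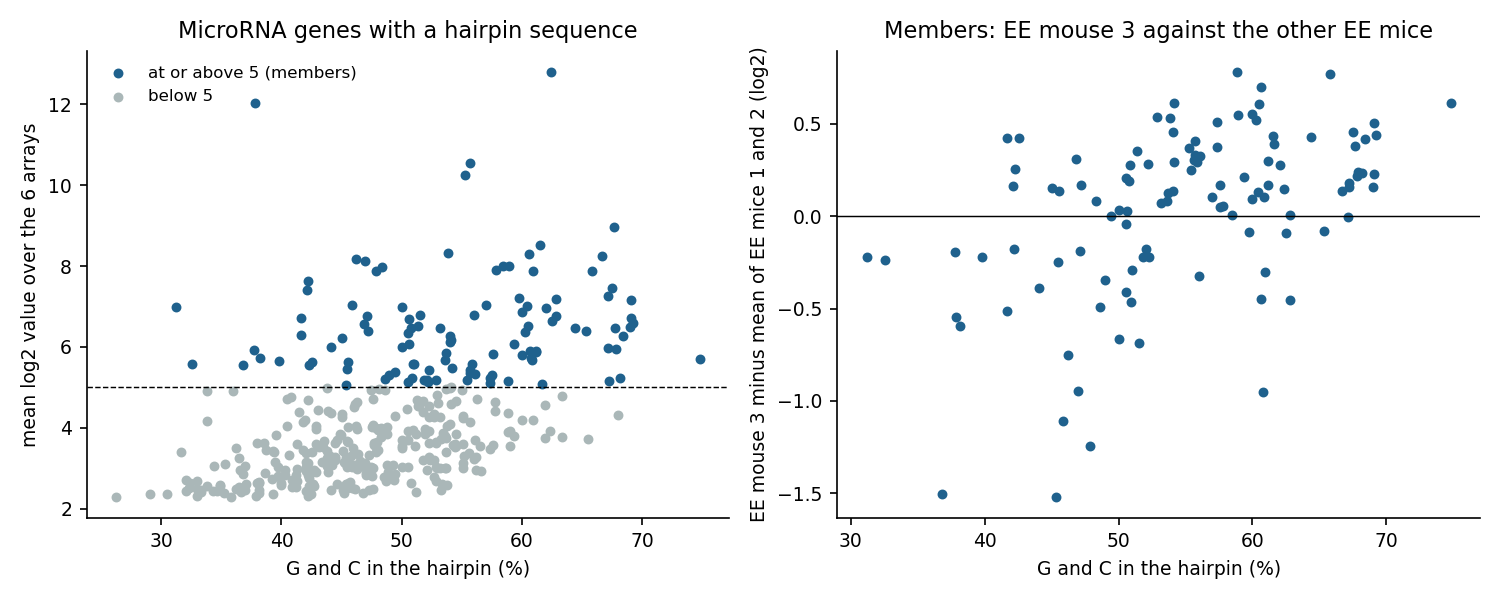
Left, mean log2 value over the 6 arrays (vertical axis) against the percent of G and C in the hairpin (horizontal axis) for 400 microRNA genes, with the members in blue, the genes under 5 in grey and a dashed line at 5. Right, for the 110 members with a hairpin sequence, the log2 value of EE mouse 3 minus the mean of EE mice 1 and 2 against the same percent. Values are higher towards the right in both panels (rho = 0.55 over 400 genes and rho = 0.46 over 110 members).

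Housing was compared first over all members. In limma's fit to 14592 probe sets, 3 of the 136 members were higher in EE mice at an unadjusted p under 0.05 (Mir142, Mir143 and Mir375) and 2 were lower (Mir505 and Mir687). That is 2.21% and 1.47% of the members, beside 1.45% higher and 1.92% lower over all probe sets tested, so the members' shares lay close to the background. None passed an adjusted p of 0.05 (limma with Benjamini-Hochberg over all 14592 probe sets, lowest adjusted p among members 0.999), and none passed the methods' pair of thresholds, an unadjusted p under 0.05 with a fold above 2 or under 0.5. The differences were small, with log2 fold changes between -0.58 and 0.46, which on the linear scale is a ratio of EE to SE between 0.667 and 1.37.

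The direction was uneven among members. The log2 fold change was above 0 in 88 members and below 0 in 48 (64.7% above), beside 49.4% above over all probe sets tested, and its median was 0.07 in members and -0.0023 over all. At 100 or more on the linear scale 28 of 48 members were above 0 (58.3%), and under 100 it was 60 of 88 (68.2%). In members ranked by the G and C content of the hairpin, 20 of the 37 with the least were above 0. The counts were 20 of the middle 36 and 30 of the 37 with the most. Without EE mouse 3 they were 23, 16 and 22 in the same order, so the excess in the last part rested on that mouse. The middle of the members' distribution, from its 25th to its 75th percentile, ran between log2 fold changes of -0.05 and 0.17. Without EE mouse 3 the median was 0.04, with 80 members above 0 and 56 below, beside a median of 0.02 over all probe sets. Without SE mouse 1 the members' median was also 0.04. The per-mouse medians of the members, each as the difference from the mean of the SE mice, were 0.02, 0.05 and 0.11 in EE mice and -0.05, -0.01 and 0.06 in SE mice, so EE mouse 1 and EE mouse 2 lay inside the range of the SE mice.

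**Figure D2:**
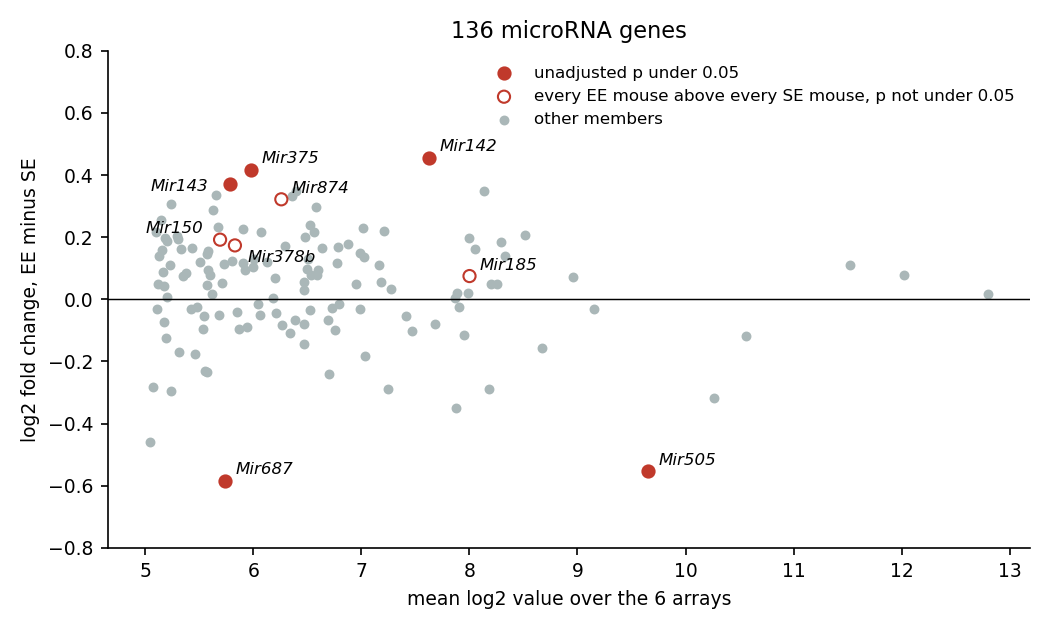
Log2 fold change, EE minus SE (vertical axis), against the mean log2 value over the 6 arrays (horizontal axis), 1 point per member. Filled red points have an unadjusted p under 0.05 in limma's fit, and open red points are the other members whose EE values all exceeded the SE values. The fold changes lie between -0.58 and 0.46.

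The 3 EE values all exceeded the 3 SE values in 7 members (5.15%), beside 3.93% of all probe sets tested. The reverse order, with the EE values all below the SE values, occurred in 0 members, beside 3.97% of all probe sets. The 7 were Mir142, Mir143, Mir375, Mir874, Mir150, Mir378b and Mir185.

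Mir142, a gene active throughout the white cell lineages, had log2 values of 8.08, 7.74 and 7.73 in EE mice, against 7.29, 7.35 and 7.55 in SE mice. The lowest EE mouse was above the highest SE mouse. Its means were 7.85 ± 0.20 in EE and 7.40 ± 0.13 in SE (SD, n = 3 each), a log2 fold change of 0.46 (with a standard error of 0.147, an unadjusted p of 0.0133 and an adjusted p of 0.999, limma). Without EE mouse 1 the unadjusted p was 0.0544. Beside this result, 12 of 12 neutrophil marker genes had a log2 fold change above 0, with a median of 0.62. At an unadjusted p under 0.05 (limma) 9 of the 12 were higher in EE mice, beside 1.45% of all probe sets tested. The summed linear level of the 12 genes was 6376 to 7800 in EE mice, against 3939 to 5060 in SE mice. In the other white cell lists, 0 of 10 B cell genes were above 0 (median -0.24). The counts were 9 of 9 for T cell genes (median 0.08) and 8 of 9 for monocyte genes (median 0.20). No gene on these 3 lists was under an unadjusted p of 0.05 (limma). The paper reports no difference in leukocyte numbers, with a larger share of neutrophils and a smaller share of lymphocytes in EE blood. The part of white cell numbers in the Mir142 value was not tested.

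Mir143, best known from smooth muscle and connective tissue cells, had 5.96, 5.90 and 6.03 in EE mice, against 5.55, 5.54 and 5.70 in SE mice. The groups did not overlap, and the log2 fold change was 0.37 (with a standard error of 0.121, an unadjusted p of 0.0142 and an adjusted p of 0.999, limma). The unadjusted p was 0.0562 without SE mouse 2. Mir375, typical of pancreatic islet cells, had 6.14, 6.10 and 6.30 in EE mice, against 5.88, 5.92 and 5.502 in SE mice. EE mice were again all above SE mice, by 0.42 on average (with a standard error of 0.150, an unadjusted p of 0.0227 and an adjusted p of 0.999, limma), and the unadjusted p was 0.0962 without SE mouse 3, the lowest of the SE values. Both genes had means under 100 on the linear scale and would have been removed by the minimum of the methods.

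Mir505, a gene of the X chromosome, had 9.75, 9.39 and 8.99 in EE mice, against 9.73, 10.07 and 9.98 in SE mice. EE mouse 1 lay above SE mouse 1, so the groups overlapped. The log2 fold change was -0.55 (with a standard error of 0.201, an unadjusted p of 0.0234 and an adjusted p of 0.999, limma), and the unadjusted p was 0.0540 without EE mouse 3, 0.0819 without SE mouse 2 and 0.0622 without SE mouse 3. Mir687 had 5.51, 5.77 and 5.05 in EE mice, against 6.11, 6.27 and 5.70 in SE mice. Like Mir143 and Mir375, it had a mean under 100 on the linear scale (53.2) and would have been removed by the methods' minimum. Its groups overlapped too, with EE mouse 2 above SE mouse 3, and EE mouse 3 held the lowest value. The log2 fold change of Mir687 was -0.58 (with a standard error of 0.217, an unadjusted p of 0.0261 and an adjusted p of 0.999, limma), with an unadjusted p of 0.0720 without EE mouse 3, 0.0735 without SE mouse 1 and 0.101 without SE mouse 2. By the plain t-statistic of the same linear model the unadjusted p was 0.0855 for Mir505 and 0.0985 for Mir687. For Mir142, Mir143 and Mir375 it was 0.0296, 0.0044 and 0.0462 (plain t-statistic).

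**Figure D3:**
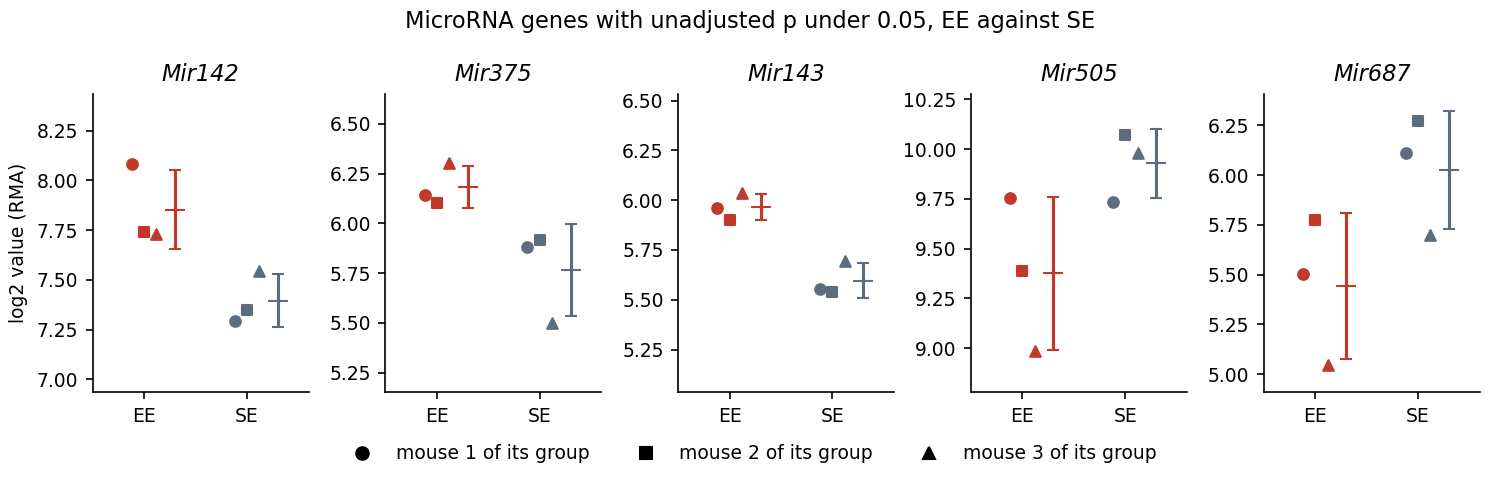
Log2 values (vertical axis, each panel spanning 1.5 log2 units) of the 5 members with an unadjusted p under 0.05, 1 point per mouse, EE mice in red and SE mice in grey, with the mean and SD (n = 3) beside them. Mir142, Mir375 and Mir143 show no overlap between the groups, and in Mir505 and Mir687 the EE and SE points overlap.

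The other members without overlap did not reach an unadjusted p of 0.05 in limma's fit. Mir874 had 6.25, 6.31 and 6.70 in EE mice, against 6.05, 6.06 and 6.18 in SE mice (log2 fold change 0.32, unadjusted p = 0.0640, limma). Mir185, which lies in Tango2, was the steadiest of all members, with 8.05, 8.02 and 8.04 in EE mice, against 7.97, 7.95 and 7.96 in SE mice. The whole range of Mir185 over the 6 mice was 0.10, and its log2 fold change of 0.07 had an unadjusted p of 0.524 in limma's fit, which shares the spread between genes, and of 0.0016 by the plain t-statistic of the same linear model. Mir150 had 5.85, 5.79 and 5.73 in EE mice, against 5.48, 5.66 and 5.65 in SE mice, with an unadjusted p of 0.150 in limma's fit and 0.0442 by the plain t-statistic.

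The members on the lists of blood cell microRNAs were then taken by lineage. Of the erythroid list 2 of 7 measured genes were members. Mir451a, whose hairpin is cut by Ago2 and not by Dicer1, had 6.62, 5.97 and 6.46 in EE mice, against 6.65, 6.50 and 6.11 in SE mice, and its log2 fold change was -0.07 (with a standard error of 0.206 and an unadjusted p of 0.7498, limma). Mir210, induced by low oxygen, had 7.06, 7.23 and 7.37 in EE mice, against 7.13, 7.13 and 7.07 in SE mice (log2 fold change 0.11, unadjusted p = 0.418, limma). The groups overlapped in both. Beside them, 11 of 12 measured red cell marker genes had a log2 fold change below 0 and 1 above, with a median of -0.69. At an unadjusted p under 0.05 (limma) 10 of the 12 were lower in EE mice, beside 1.92% of all probe sets tested. The summed linear level of the 12 genes was 6095 to 8350 in EE mice, against 9723 to 12570 in SE mice.

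Of the myeloid list 4 of 9 measured genes were members, Mir142, Mir212, Mir23a and Mir27a. All 4 had log2 fold changes above 0 (median 0.19), beside 64.7% above 0 over all members. Mir142 alone was under an unadjusted p of 0.05 (limma). Mir23a had 7.10, 6.85 and 6.65 in EE mice, against 6.93, 6.75 and 6.42 in SE mice. Mir27a, its neighbour on chromosome 8, had 7.55, 7.15 and 7.27 in EE mice, against 7.56, 6.91 and 6.83 in SE mice. The groups overlapped in both genes, and the log2 fold changes of 0.17 and 0.22 lay within the spread between mice (unadjusted p = 0.369 and 0.320, limma).

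Of the lymphoid list 9 of 19 measured genes were members, 4 with a log2 fold change above 0 and 5 below (median -0.02), none under an unadjusted p of 0.05. Mir15a, which with Mir16-1 lies in the long non-coding gene Dleu2, had 7.81, 7.79 and 7.34 in EE mice, against 7.77, 7.85 and 7.56 in SE mice. Mir16-2, which lies in Smc4 on chromosome 3, had 5.76, 6.12 and 4.43 in EE mice, against 5.64, 5.36 and 5.99 in SE mice. Mir342, which lies in Evl, had 7.27, 6.77 and 6.33 in EE mice, against 6.65, 6.90 and 6.86 in SE mice. EE mouse 3 was the lowest of the 6 mice in each of these 3 genes, and the highest of the 6 in 3 others of the 9 (Mir181d at 6.75, Mir191 at 6.53 and Mir425 at 6.59). Of the other lists, the megakaryocyte list held Mir99b (log2 fold change 0.16), the let-7 list Mirlet7a-1 (0.29, unadjusted p = 0.149, limma) and the list of Mir17-92 paralogs Mir106b (-0.03).

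**Figure D4:**
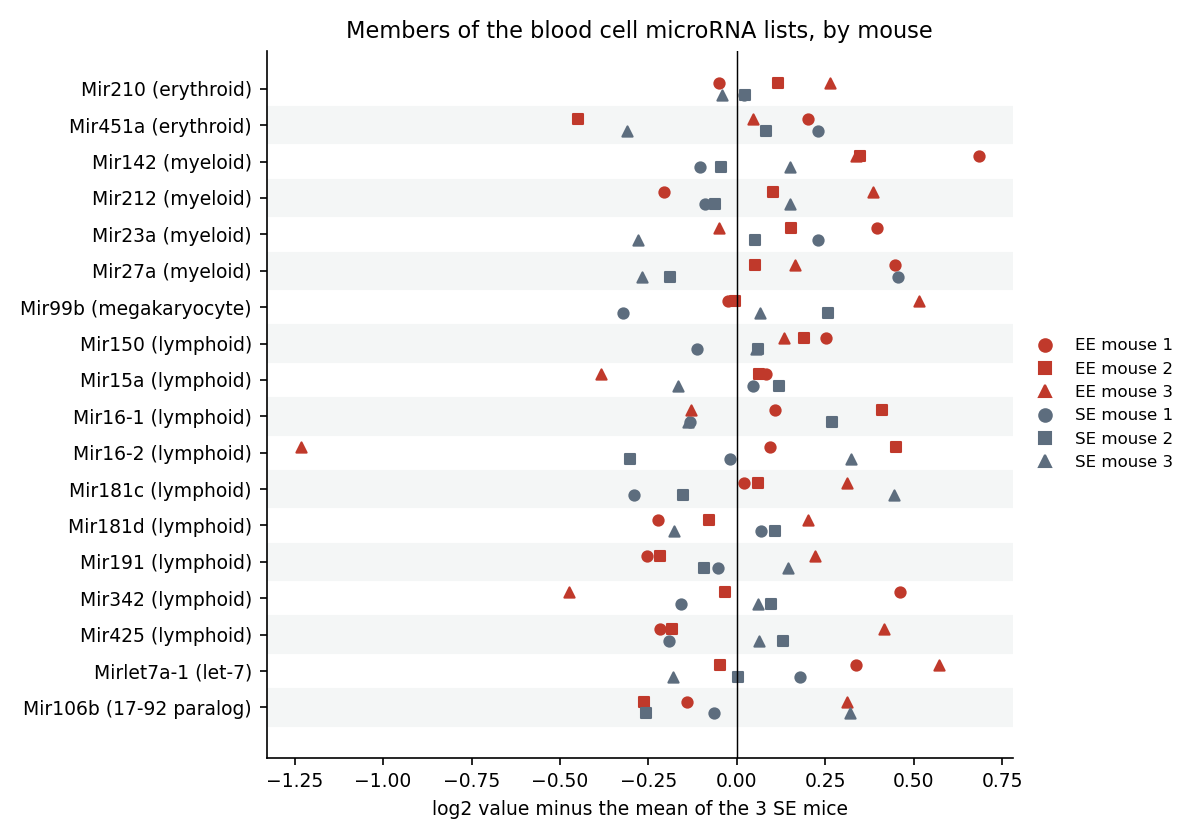
Log2 value of each mouse minus the mean of the 3 SE mice (horizontal axis) for the 18 members on the lists of blood cell microRNAs, with EE mice in red above SE mice in grey and a symbol for each mouse number. In Mir142 and Mir150 the EE mice stand to the right of the SE mice, and EE mouse 3 stands far to the left in Mir16-2 (4.43, against a mean of 5.66 in SE mice).

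EE mouse 3 stood apart from the other mice. Over the members its mean correlation with the other arrays was 0.946, beside 0.959 to 0.971 for the rest, and the first principal component (40.9% of the variance) gave it a score of 3.97, beside -1.56 to -0.03. It held the highest of the 6 values in 45 members (33.1%) and the lowest in 27 (19.9%), and over all probe sets tested the shares were 26.9% and 33.7%. The direction of its deviation went with the base composition of the hairpin. EE mouse 3 minus the mean of EE mice 1 and 2 had a median of -0.19 in the 37 members with the least G and C, 0.23 in the middle 36 and 0.23 in the 37 with the most, and r = 0.47 and rho = 0.46 with G and C content over 110 members, as a description. In the 290 microRNA genes under the threshold rho was 0.21. In the same mouse the B cell and T cell marker lists stood at -0.93 and -0.39 (median difference from the SE mean), beside 0.05 in both other EE mice for B cells and 0.38 and 0.46 for T cells, and the monocyte list at 0.63, beside 0.07 to 0.09. The parts of base composition and of cell make-up in the values of this mouse were not tested.

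Without EE mouse 3, 7 members were higher and 3 lower in EE mice at an unadjusted p under 0.05 (5.15% and 2.21%), beside 4.85% and 3.66% of all probe sets tested, and again none passed an adjusted p of 0.05 (limma). Mir5123 had 8.61, 8.63 and 7.68 in EE mice, against 7.85, 7.94 and 8.07 in SE mice. EE mice 1 and 2 were above, and EE mouse 3 below, all SE mice. Its log2 fold change was 0.35 with all mice (unadjusted p = 0.192) and 0.67 without EE mouse 3 (unadjusted p = 0.00051, adjusted p = 0.386, limma). Mir1927 had 7.34, 7.58 and 6.35 in EE mice, against 6.86, 6.996 and 7.02 in SE mice, with log2 fold changes of 0.14 (unadjusted p = 0.644) and 0.51 without EE mouse 3 (unadjusted p = 0.0038, limma). Mir142, Mir143 and Mir375 stayed higher without this mouse (unadjusted p = 0.0079, 0.0165 and 0.0452, limma), and Mir3085 and Mir5103 joined them. The lower members were then Mir761, Mir152 and Mir344f, in place of Mir505 and Mir687.

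Groups of members defined by place were described after their values had been seen. In the imprinted region of chromosome 12, which is transcribed from the maternal chromosome and holds many microRNA genes, 10 genes were members, Mir1188, Mir329, Mir341, Mir540, Mir665, Mir666, Mir668, Mir673, Mir679 and Mir758. Of these, 8 had a log2 fold change above 0 and 2 below, beside 64.7% above 0 over all members. The median was 0.14, the range was -0.12 to 0.23, and the lowest unadjusted p was 0.136 (Mir341, limma). EE mouse 3 was the highest of the 6 mice in 4 of the 10 genes and the lowest in 0. Mir341 had 6.02, 6.19 and 6.32 in EE mice, against 5.93, 5.87 and 6.07 in SE mice, so that EE mouse 1 lay below SE mouse 3. Of 8 members of the Mir297, Mir466, Mir467 and Mir669 families, many of whose copies lie in an intron of Sfmbt2, 4 were above 0 and 4 below (median -0.0033). EE mouse 3 was the lowest of the 6 mice in 7 of the 8. Copies of these families are nearly identical, and the values of single copies are uncertain for that reason.

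Members that lie close together were compared where RefSeq placed them within 10 kb, which gave 8 clusters with 18 members. None of the 18 had an unadjusted p under 0.05 (limma). In 3 clusters the log2 fold changes were all above 0, in 1 all below and in 4 of mixed sign. Above 0 were Mir23a with Mir27a, Mir341 with Mir1188 (0.22 and 0.23) and Mir540 with Mir665 (0.12 and 0.06). Mir15a and Mir16-1 had log2 fold changes of -0.08 and 0.13, Mir191 and Mir425 of -0.08 and 0.01, Mir181c and Mir181d of 0.13 and -0.03, and Mir188 and Mir532 of -0.23 and -0.17. Of the 10 shared seeds, 2 had members all above 0, 1 all below and 7 of mixed sign. The pair Mir103-2 and Mir107 shares a seed on each side of its hairpins and is counted under both, each time as mixed. Mir680-2 and Mir680-3, which share the seed GGCAUCU, were at 0.02 and 0.08, and Mir103-2 was at -0.46 with Mir107 at 0.12. Mir103-2 had the widest range of all members, with 4.95, 5.70 and 3.80 in EE mice, against 5.39, 5.07 and 5.37 in SE mice.

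Many members lie inside a longer gene and can be read from its transcript. A gene of the same strand with its own probe set at 5 or more held 53 members (50 such genes), and the log2 fold change of member and holding gene had the same sign in 36 of the 53 pairs, with r = 0.33 and rho = 0.34 across pairs, as a description. Of the 50 holding genes, 1 was higher in EE mice at an unadjusted p under 0.05 (Fndc3b, with Mir3092 inside) and 2 were lower (Nrd1, with Mir761, and Nudt4, with Mir3058), which is 2.0% and 4.0% beside 1.45% and 1.92% of all probe sets tested. Fndc3b had a log2 fold change of 0.44 and Mir3092 of 0.05. Nudt4 had one of -0.42 and Mir3058 one of 0.14, in the opposite direction. Nrd1, which encodes the protease nardilysin, had 9.84, 9.79 and 9.54 in EE mice, against 10.42, 10.35 and 10.31 in SE mice. Every EE mouse was below every SE mouse (log2 fold change -0.64, unadjusted p = 0.00102, adjusted p = 0.999, limma). Mir761 had 9.958, 9.996 and 10.35 in EE mice, against 10.58, 10.45 and 10.23 in SE mice, and EE mouse 3 overlapped the SE mice (log2 fold change -0.32, unadjusted p = 0.0736). Without EE mouse 3 the log2 fold change of Mir761 was -0.44 (unadjusted p = 0.0104, limma). Mir687 lies in Rb1, the retinoblastoma gene, whose log2 fold change was -0.12 (unadjusted p = 0.396, limma). The strand of Rb1 is not known here.

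**Figure D5:**
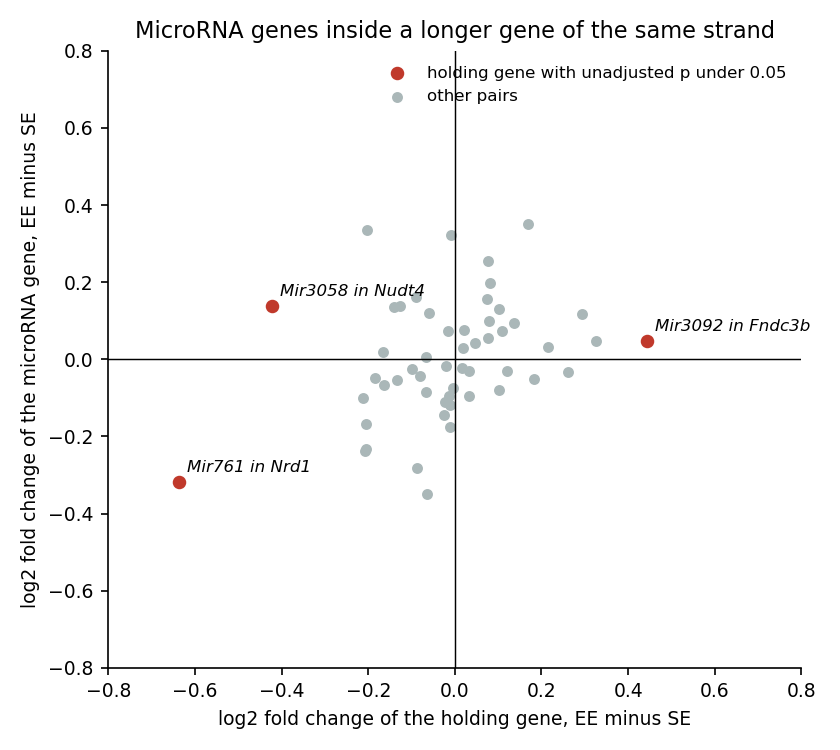
Log2 fold change, EE minus SE, of the microRNA gene (vertical axis) against that of the gene that holds it on the same strand (horizontal axis) for 53 pairs, 1 point per pair. The 3 holding genes with an unadjusted p under 0.05 in limma's fit are red and labelled, with Nrd1 at -0.64 and its Mir761 at -0.32.

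The genes that make and use microRNAs were taken last. Of 19 genes that process microRNA precursors, 13 were tested and 0 had an unadjusted p under 0.05 (limma), with 10 of the 13 log2 fold changes below 0 and a median of -0.12. EE mouse 3 was the lowest of the 6 mice in 9 of the 13 genes, and without it the median was -0.01, with 9 genes below 0 and 4 above. Drosha, the nuclear nuclease, had 6.34, 6.41 and 6.08 in EE mice, against 6.59, 6.28 and 6.41 in SE mice. Dicer1 had 7.65, 7.71 and 7.10 in EE mice, against 7.48, 7.69 and 7.66 in SE mice. In both, EE mouse 3 held the lowest value and the groups overlapped.

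Of 19 genes of the silencing machinery, 17 were tested, 16 with a log2 fold change below 0 (median -0.12) and 1 above, beside 49.4% above 0 over all probe sets tested. EE mouse 3 was the lowest of the 6 mice in 14 of the 17 genes, and without it the direction turned, with 13 genes above 0, 4 below and a median of 0.03. With all mice, 1 gene was lower at an unadjusted p under 0.05. This was Ago2, the Argonaute that can cut its target and that also cuts the Mir451a hairpin. Ago2 had 10.16, 10.06 and 10.46 in EE mice, against 10.81, 10.45 and 10.73 in SE mice. EE mouse 3 lay just above SE mouse 2. The log2 fold change of Ago2 was -0.44 (with a standard error of 0.157, an unadjusted p of 0.0228 and an adjusted p of 0.999, limma), and the count of 1 fell to 0 without EE mouse 2, SE mouse 1 or SE mouse 3. Ago1, Ago3 and Ago4 had log2 fold changes of -0.09, -0.16 and -0.26, none under an unadjusted p of 0.05. Ago2, Ago3, Ago4 and Parn were the 4 genes below 0 without EE mouse 3. Most red cell marker genes, given above with the erythroid members, were lower in EE mice too. The part of red cell numbers in the Ago2 value was not tested.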

How the data were processed

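Whole blood RNA of 3 EE and 3 SE mice was measured on Affymetrix whole-transcript arrays. The authors applied RMA (the robust multiarray average of affy) and deposited log2 values for 41345 probe sets, 1 column per mouse. RMA equalizes the arrays, so differences in total RNA are removed and small folds can be compressed. The methods name a Mouse Gene 1.0 ST array, while the probe annotation of the table is that of a Gene 2.0 ST design, and the build is not given in the sources used here. Precision is limited by the number of mice, since arrays have no depth. An exact test of 3 against 3 mice cannot go below p = 0.10, so tests rest on limma's fit across all probe sets.

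Probe sets with an Entrez ID and a mean of at least 5 over the 6 arrays (14592, of which 940 carry several genes) entered a fit of EE minus SE by limma 3.58.1 under R 4.3.3 (lmFit, default eBayes, without covariates), with Benjamini-Hochberg adjustment over all of them. The methods' minimum of 100 on the linear scale was an alternative, as it leaves 48 of the 136 members. The fit was tested on simulated data. Members, gene lists and tests were chosen with earlier results of these data known. The text names members with an unadjusted p under 0.05, on the lists, at the threshold or at 100 and above, and genes that hold them; groups by place, and members named for their range or their value without EE mouse 3, were added after their values were seen. Lists of red cell, neutrophil, platelet, B cell, T cell and monocyte markers had 12 of 16, 12 of 12, 8 of 11, 10 of 11, 9 of 11 and 9 of 10 genes at 5 or more. No platelet, B cell, T cell or monocyte gene had an unadjusted p under 0.05 (median log2 fold changes 0.32, -0.24, 0.08 and 0.20). Sequences and positions are from RefSeq, GRCm38.p6, and strands of holding genes from its promoter table. Mouse numbers did not pair the samples (correlations of same-numbered deviations -0.04, 0.02 and -0.09).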

Additional observations from a re-analysis of the deposited data

How the results depend on the processing

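The count of members with an adjusted p under 0.05, and of members past the methods' p and fold thresholds, was 0 under every alternative run, and the median log2 fold change of the members stayed above 0 (0.03 with the minimum of 100 to 0.09 without SE mouse 3). With the minimum of 100, 1 member was higher, 1 lower and 2 without overlap; at a minimum of 6, 1 was higher and 1 lower. Array weights, which gave EE mouse 3 a weight of 0.188, gave 8 higher and 7 lower. The plain t-statistic gave 5 higher and 0 lower, and 0 processing and effector genes, as did quantile normalization. With a mouse left out in turn, 3 to 7 members were higher, 0 to 4 lower and 15 to 23 without overlap, the last by construction more than with all mice, and 0 to 1 processing and effector genes passed. With the mouse number as a replicate block, 3 members were higher and 2 lower, and the block changed no count. The share of all probe sets called depends on the setting, and without EE mouse 3 it was 4.85% higher and 3.66% lower. For the other alternatives that share is not given here, so their counts are not read as a result about the members. Over single genes and settings, 1910 values kept their direction and side of the threshold, 31 passed it newly, 11 no longer passed it and 0 reversed while called. Where no cause is named, the cause was not tested. Members near background on the array have compressed differences, and 58 of 136 had a mean between 5 and 6.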
